A study of Mus musculus with 16 samples.

Results

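The SLC25 genes encode the mitochondrial carriers, the largest family of transport proteins of the inner mitochondrial membrane. They were examined in the liver of control mice and of mice lacking Cpt1a in the liver (LKO). Members were the protein-coding genes whose symbol is Slc25a followed by a number, without Slc25a1 (the citrate carrier) and Slc25a20 (the carnitine/acylcarnitine carrier). This gave 43 of the 25803 genes in the joined tables. Male mice had been fed a high-fat diet for 12 weeks, and bulk poly-A RNA was sequenced in 16 liver libraries. Fasted control (S40 to S43) and fasted LKO (S44 to S47) mice were killed after a 16 h fast, and refed control (S48 to S51) and refed LKO (S52 to S55) mice once food had been returned for 6 h after such a fast. Each group has 4 libraries. All 4 groups shared the diet and the fast. The labels call the comparison genotype control, and the series' design text calls it WT. The Cre line or virus that removed Cpt1a, the age and the number of animals behind a library are not given in the sources used here, so p-values measure the spread between these libraries.

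Mitochondrial carriers are small membrane proteins built from repeats of a pair of helices, and most exchange a solute of the matrix for one of the cytosol. In hepatocytes they connect the matrix with cytosolic pathways. Citrin and the oxoglutarate carrier serve the malate-aspartate shuttle, the ornithine carrier serves the urea cycle, the ADP/ATP and phosphate carriers serve oxidative phosphorylation, and others bring in cofactors, iron and glutathione. CPT1A acts upstream of the carnitine/acylcarnitine carrier, at the outer membrane, in the entry of long-chain fatty acids.

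Libraries held 14721601 to 24618230 counts. Cpt1a checked the labels: it was at 378 to 556 CPM (counts per 1000000 counts of the TMM-scaled library) in fasted control and 86.1 to 126 CPM in fasted LKO, and at 319 to 619.7 CPM in refed control and 39.9 to 75.2 CPM in refed LKO. The 8 hepatocyte markers were present in every library. One library stood apart in markers of bile duct cells. Krt19 reached 29.001 CPM in S44, whereas it lay at 1.12 to 1.24 CPM in S45 to S47, and Krt7 and Epcam stood at 4.59 and 7.89 CPM. Results on fasted LKO that rest on S44 are therefore given with and without it. A gene was called at a Benjamini-Hochberg adjusted p under 0.05 by edgeR's quasi-likelihood test over all 14488 genes that passed a filter on low counts, and every adjusted p below is of this kind unless another tool is named. Fold changes are on the log2 scale with their standard error (SE). In bulk tissue, fewer cells of a type and less RNA per cell cannot be told apart.

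Levels were compared between carriers as CPM per kilobase of the gene length in the deposited tables. The 4 highest carriers exceeded 100 CPM per kilobase on average over the 16 libraries. Slc25a47, a carrier found mainly in liver whose substrate is debated, averaged 318 CPM per kilobase (192 to 609.97 over libraries). Slc25a5, the ADP/ATP carrier ANT2, averaged 304 (237 to 349), Slc25a39, a glutathione carrier, 252 (216 to 303) and Slc25a10, the dicarboxylate carrier, 167 (116 to 218). The ranges of Slc25a47, Slc25a5 and Slc25a39 over all libraries overlapped. Within libraries, Slc25a5 was above Slc25a39 in all but S44 and S46, whereas the order of Slc25a47 and Slc25a5 changed between groups. Slc25a47 had the highest mean in fasted LKO (476 ± 139 CPM per kilobase, against 282 ± 36.2 for Slc25a5, SD, n = 4), and Slc25a5 was above it in fasted control (312 ± 10.03 against 290.5 ± 34.9), refed control (303 ± 13.7 against 247 ± 49.7) and refed LKO (320.3 ± 30.7 against 258 ± 29.5). Slc25a10 was the lowest of the 4 in each library. Its range over all libraries overlapped those of Slc25a47 and Slc25a39 but not that of Slc25a5. These 4 genes made up 60.4% to 70.2% of the summed per-kilobase level of the 43 carriers in a library.

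Below them, 13 carriers stood between 10 and 100 CPM per kilobase. Citrin (Slc25a13) had 66.3, the calcium-regulated ATP-Mg/phosphate carrier Slc25a23 65.1, the phosphate carrier Slc25a3 60.1, the glutamate carrier Slc25a22 46.2, the oxoglutarate carrier Slc25a11 44.4 and the ornithine carrier Slc25a15 34.9 CPM per kilobase. A further 15 stood between 1 and 10, and 11 below 1. The 4 carriers that failed the filter were Slc25a18, Slc25a2, Slc25a43 and Slc25a31 with 48, 21, 17 and 17 counts over all 16 libraries, and 39 carriers were tested.

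Within pairs of close relatives, liver expressed the members very unequally. Slc25a5 (ANT2) stood 61.5 to 171 times as high per kilobase as Slc25a4 (ANT1), the ADP/ATP carrier best known from heart and muscle. Slc25a13 stood 20.2 to 47.8 times as high as aralar (Slc25a12), its counterpart of brain and muscle. Slc25a39 stood 429 to 983 times as high as Slc25a40, the other glutathione carrier of the family. The iron importers were closer to each other. Mitoferrin-2 (Slc25a28) over mitoferrin-1 (Slc25a37), which is best known from red cell precursors, gave a ratio of 1.55 to 2.12 in fasted control, 2.32 to 3.03 in fasted LKO, 0.765 to 0.957 in refed control and 0.814 to 1.59 in refed LKO. Mitoferrin-2 was the higher of the pair in all 8 fasted libraries and the lower in all 4 refed control libraries. Slc25a5 has processed pseudogenes, and reads shared with them may be assigned differently by other counting.

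**Figure D1:**
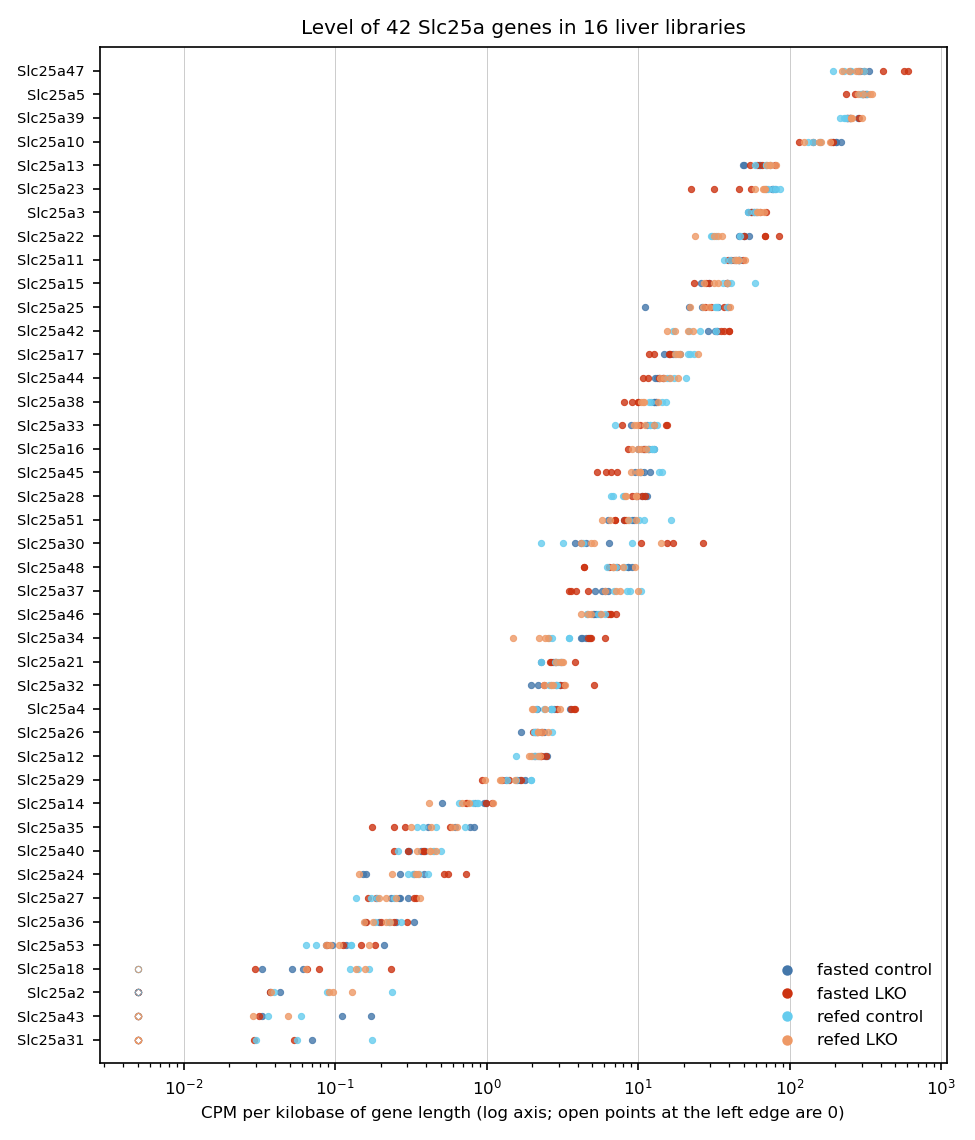
Level of 42 carrier genes, in CPM per kilobase of gene length on a log axis, 1 point for each of the 16 libraries, coloured by group and ordered by the mean. Slc25a47, Slc25a5, Slc25a39 and Slc25a10 stand above 100 CPM per kilobase in each library, and 4 genes at the bottom have libraries at 0, drawn as open points at the left edge.

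The summed CPM of the 43 carriers was 5063 to 5385 in fasted control, 5152 to 6197 in fasted LKO, 4819 to 5015 in refed control and 4636 to 5103 in refed LKO. The fasted groups overlapped, and so did the refed ones. Within groups, the mean coefficient of variation of CPM was smallest for 3 abundant carriers, with 6.28% for Slc25a3, 7.19% for Slc25a39 and 7.54% for Slc25a5. Slc25a30, an uncoupling-protein relative first described in kidney, varied most among the 39 tested carriers, with 48.5%.

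The first comparison set LKO against control in the fasted state, when the liver normally oxidises fatty acids that enter through CPT1A. The test called 10 of 39 carriers, 4 of them higher and 6 lower in LKO. That is 25.6% of the carriers, against 12.2% of all genes tested (5.75% higher and 6.48% lower). The carriers had a median log2 fold change of −0.05, against 0.02 over all genes, with 17 carriers higher and 22 lower. Without regard to sign, the median size of the change was 0.211 for the carriers and 0.208 for all genes. The larger share called therefore did not go with a larger median change. Higher were Slc25a30, Slc25a24, Slc25a47 and Slc25a46. The lower ones included Slc25a23, Slc25a45, Slc25a37, Slc25a48 and Slc25a38. Without S44 the count was 4 (Slc25a23, Slc25a45, Slc25a38 and Slc25a30), and without S40, S42, S43 or S46 it was 6. The share of all genes called in fits without a library is not given here. These counts therefore do not tell the carriers from genes at large.

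Of 10 tested carriers grouped here under amino acids and the malate-aspartate shuttle, 3 were called lower and 0 higher in fasted LKO. Over all genes 6.48% were called lower and 5.75% higher. The 3, Slc25a45, Slc25a38 and Slc25a48, are not all amino acid carriers. Slc25a45 is a liver-expressed carrier that has been described as importing methylated basic amino acids. It held 26.5, 30.4, 33.2 and 28.8 CPM in S40 to S43 and 14.8, 20.03, 18.4 and 17.03 CPM in S44 to S47. Every fasted LKO library lay below every fasted control library. Group means were 29.7 ± 2.81 and 17.6 ± 2.21 CPM (SD, n = 4), a log2 fold change of −0.76 (SE 0.12, edgeR adjusted p = 0.00121) that was called in all 8 fits leaving out 1 library and was −0.68 (adjusted p = 0.00544) without S44. Slc25a38 imports glycine for heme synthesis. Its fasted control libraries held 35.2, 34.96, 36.3 and 36.1 CPM and its fasted LKO libraries 25.2, 27.6, 22.2 and 27.6 CPM. The 2 groups did not overlap, and Slc25a38 had a log2 fold change of −0.48 (SE 0.10, edgeR adjusted p = 0.00711), called in all 8 fits too, with −0.47 (adjusted p = 0.0239) without S44. Slc25a48, which carries choline, held 28.9, 22.9, 30.6 and 28.8 CPM in fasted control and 14.8, 24.6, 21.7 and 14.8 CPM in fasted LKO. S45 overlapped the lowest control library, and the change of −0.55 (SE 0.16, edgeR adjusted p = 0.0343) was not called without S40, S42, S43, S44 or S47 (adjusted p 0.0733 to 0.113).

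The carriers of the malate-aspartate shuttle, of ornithine and of glutamate did not pass in this comparison. Citrin (Slc25a13) ran from 187 to 242 CPM in fasted control and 209.8 to 303 CPM in fasted LKO, with groups that overlapped (0.21, SE 0.12, edgeR adjusted p = 0.276). The oxoglutarate carrier Slc25a11 was at 96.6 ± 3.84 and 92.1 ± 9.23 CPM (SD, n = 4; edgeR adjusted p = 0.672). The ornithine carrier Slc25a15 was at 186 ± 36.5 and 168 ± 37.1 CPM (SD, n = 4; edgeR adjusted p = 0.655). The glutamate carrier Slc25a22 was at 301 ± 18.96 and 408 ± 85.5 CPM (SD, n = 4; 0.44, SE 0.17, edgeR adjusted p = 0.0972), and it was called only without S45 (0.0297). The authors' own adjusted p for Slc25a22 was under 0.05.

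The adenine nucleotide carriers moved in different directions. Slc25a23 exchanges ATP-Mg for phosphate under the control of calcium and was the highest of its subfamily. It held 373, 408, 410.5 and 425 CPM in fasted control and 118, 296, 169 and 245 CPM in fasted LKO. All 4 LKO libraries lay below the lowest control library, with S44 lowest and S45 highest. The group means were 404 ± 22.05 and 207 ± 79.1 CPM (SD, n = 4), a log2 fold change of −0.97 (SE 0.19, edgeR adjusted p = 0.00416). Without S44 it was −0.77 (adjusted p = 0.00501). Its relative Slc25a24 was far lower, at 0.525 to 1.33 CPM in fasted control and 1.13 to 2.50 CPM in fasted LKO. Slc25a24 was called higher, by 1.16 (SE 0.34, edgeR adjusted p = 0.0342), but not without S40, S41, S43, S44, S46 or S47 (adjusted p 0.0533 to 0.116), and the groups overlapped. The third relative, Slc25a25, did not pass (182 ± 74.98 against 264 ± 42.98 CPM, SD, n = 4; edgeR adjusted p = 0.183). Per kilobase, Slc25a23 stood 2.38 to 6.38 times as high as Slc25a25 in fasted control and 0.598 to 1.85 times as high in fasted LKO. The ADP/ATP carriers Slc25a5 (−0.15, edgeR adjusted p = 0.360) and Slc25a4 (0.35, 0.193) and the phosphate carrier Slc25a3 (0.14, 0.308) did not pass.

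Slc25a30 had the largest log2 fold change of the 39 carriers in fasted LKO. It held 29.2, 17.5, 19.1 and 20.9 CPM in fasted control and 122, 48.1, 71.01 and 77.5 CPM in fasted LKO. The lowest LKO library, S45, was above the highest control library, S40, and the LKO libraries differed among themselves, with S44 highest. The group means were 21.7 ± 5.20 and 79.7 ± 31.04 CPM (SD, n = 4), 3.67-fold in the fit (1.88, SE 0.43, edgeR adjusted p = 0.0100). It was called in all 8 fits that left out 1 library, with 1.59 (adjusted p = 0.0391) without S44. The other uncoupling-protein relatives, Slc25a14 and Slc25a27, had means under 3 CPM in every group and did not pass (edgeR adjusted p = 0.857 and 0.908).

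Slc25a47, one of the most abundant carriers, held 842, 1004, 871 and 752 CPM in fasted control and 1696, 919.7, 1821 and 1243 CPM in fasted LKO. S44, S46 and S47 lay above all controls, whereas S45 lay among them. The group means were 867 ± 104 and 1419.9 ± 416 CPM (SD, n = 4; 0.71, SE 0.19, edgeR adjusted p = 0.0203). This call was lost without S40, S42, S43, S44 or S46 (adjusted p 0.0505 to 0.0734) and with only the 2 groups compared (0.0560). Slc25a46 encodes a carrier-like protein of the outer membrane that acts in mitochondrial shape. It held 27.4, 28.7, 30.5 and 27.98 CPM in fasted control and 38.6, 35.98, 35.2 and 34.6 CPM in fasted LKO, without overlap. The difference was small (0.33, SE 0.10, edgeR adjusted p = 0.0414) and was called in none of the 8 fits that left out 1 library, S40 to S47 in turn (adjusted p 0.0512 to 0.114).

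Promoter sequence is shown for 4 carriers, chosen after their values were seen: Slc25a47 (the highest mean level per kilobase in fasted LKO), Slc25a30 (the largest fold change in fasted LKO), Slc25a45 (the smallest adjusted p in fasted LKO) and Slc25a34 (the smallest adjusted p after refeeding in LKO). Each run is the 250 bases before the gene's start in RefSeq (GRCm38.p6), 5′ to 3′ on the gene's strand. Capitals mark AGGTCA or its reverse complement TGACCT, the half-site that many nuclear receptors of the liver bind, PPARA among them. In the same order, the windows are chr12:108850879-108851128 (plus strand), chr14:75787038-75787287 (minus), chr19:5877572-5877821 (plus) and chr4:141623835-141624084 (minus).
Slc25a47: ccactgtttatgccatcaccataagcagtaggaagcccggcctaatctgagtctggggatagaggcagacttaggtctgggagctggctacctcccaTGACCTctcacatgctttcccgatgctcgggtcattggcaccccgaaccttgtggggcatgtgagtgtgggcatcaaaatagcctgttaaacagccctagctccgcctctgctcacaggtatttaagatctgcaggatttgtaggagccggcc
Slc25a30: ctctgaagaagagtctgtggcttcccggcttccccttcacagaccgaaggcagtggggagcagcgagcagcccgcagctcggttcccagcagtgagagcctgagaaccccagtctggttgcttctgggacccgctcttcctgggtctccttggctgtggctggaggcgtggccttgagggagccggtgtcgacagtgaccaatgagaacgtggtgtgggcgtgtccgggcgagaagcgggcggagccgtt
Slc25a45: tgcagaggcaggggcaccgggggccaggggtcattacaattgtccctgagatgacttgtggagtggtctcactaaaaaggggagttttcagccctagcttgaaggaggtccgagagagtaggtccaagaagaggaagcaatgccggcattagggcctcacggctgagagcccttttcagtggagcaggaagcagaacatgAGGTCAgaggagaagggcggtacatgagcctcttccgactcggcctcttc
Slc25a34: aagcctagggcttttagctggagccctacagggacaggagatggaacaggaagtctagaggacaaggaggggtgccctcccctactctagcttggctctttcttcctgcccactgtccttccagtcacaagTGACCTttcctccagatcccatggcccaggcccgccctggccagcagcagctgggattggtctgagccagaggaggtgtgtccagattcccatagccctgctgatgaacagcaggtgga
The windows of Slc25a47, Slc25a45 and Slc25a34 hold 1 match each, and that of Slc25a30 holds 0. Over all RefSeq windows of this length 14.02% hold AGGTCA on either strand, and 4 of the 43 windows of the 33 carriers in that table do (9.30%), the fourth being Slc25a39. CACGTG, an E-box, was in 7 of the 43 windows (16.3%, against 6.02% of all). These windows belong to Slc25a13, Slc25a14, Slc25a15, Slc25a31, Slc25a33 and Slc25a36. Slc25a31 was not tested, and the others were called in no contrast. TGACGTCA, the cAMP response element, was in 2 (against 1.55% of all), and GTAAACA, a forkhead site, in 0 (against 3.17% of all). Each was searched on both strands. A match describes these letters and is no measure of binding.

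Of the metal carriers, Slc25a37 was lower in fasted LKO. Slc25a37 (mitoferrin-1) held 31.5, 37.9, 35.1 and 36.4 CPM in fasted control and 20.96, 28.1, 23.5 and 21.7 CPM in fasted LKO. The groups did not overlap (−0.58, SE 0.15, edgeR adjusted p = 0.0174), and the call was lost without S44 (adjusted p 0.0588). Mitoferrin-2 (Slc25a28) stood at 40.2 ± 2.71 and 37.99 ± 3.25 CPM (SD, n = 4) and did not pass (edgeR adjusted p = 0.618). For coenzyme A, the carrier Slc25a42 was at 175 to 199 CPM in fasted control and 212 to 238 CPM in fasted LKO, which did not overlap and did not pass (0.25, edgeR adjusted p = 0.340). Groups did not overlap for 7 of the 39 carriers, against 16.9% of all genes.

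Markers of other cells moved with this comparison. The summed CPM of the 7 red blood cell markers was 383 to 1266 in fasted control and 301 to 521 in fasted LKO, and 1 of the 6 tested, Alas2, was called lower (−1.04). Slc25a37 and Slc25a38 also act in red cell precursors, and the part of these cells in their values was not tested. The 8 hepatocyte markers summed to 82502 to 90828 CPM in fasted control and 66891 to 77787 CPM in fasted LKO, groups that did not overlap, with 3 called lower (Ttr, Serpina1c and Fgb) and a median log2 fold change of −0.51. The part of this in the 6 lower carriers was not tested. Bile duct markers summed to 4.14 to 8.59 CPM in fasted control and 6.05 to 45.9 CPM in fasted LKO, where S44 is the highest, and 0 of 4 were called. Adipoq and Acta1, defining markers of fat and skeletal muscle, were under 0.5 CPM in every library, while Cfd, another gene of the 4 fat markers, was called lower (−3.45). The 5 lymphocyte and plasma cell markers summed to 3.41 to 6.80 CPM in fasted control and 12.4 to 32.8 CPM in fasted LKO, with Jchain called higher (3.35), as it was in refed LKO (3.86). Of 5 stellate cell markers Dcn was called higher (0.36), and of the 5 resident macrophage and 5 endothelial markers 0 were called. The part of these cells in the carriers' values was not tested.

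**Figure D2:**
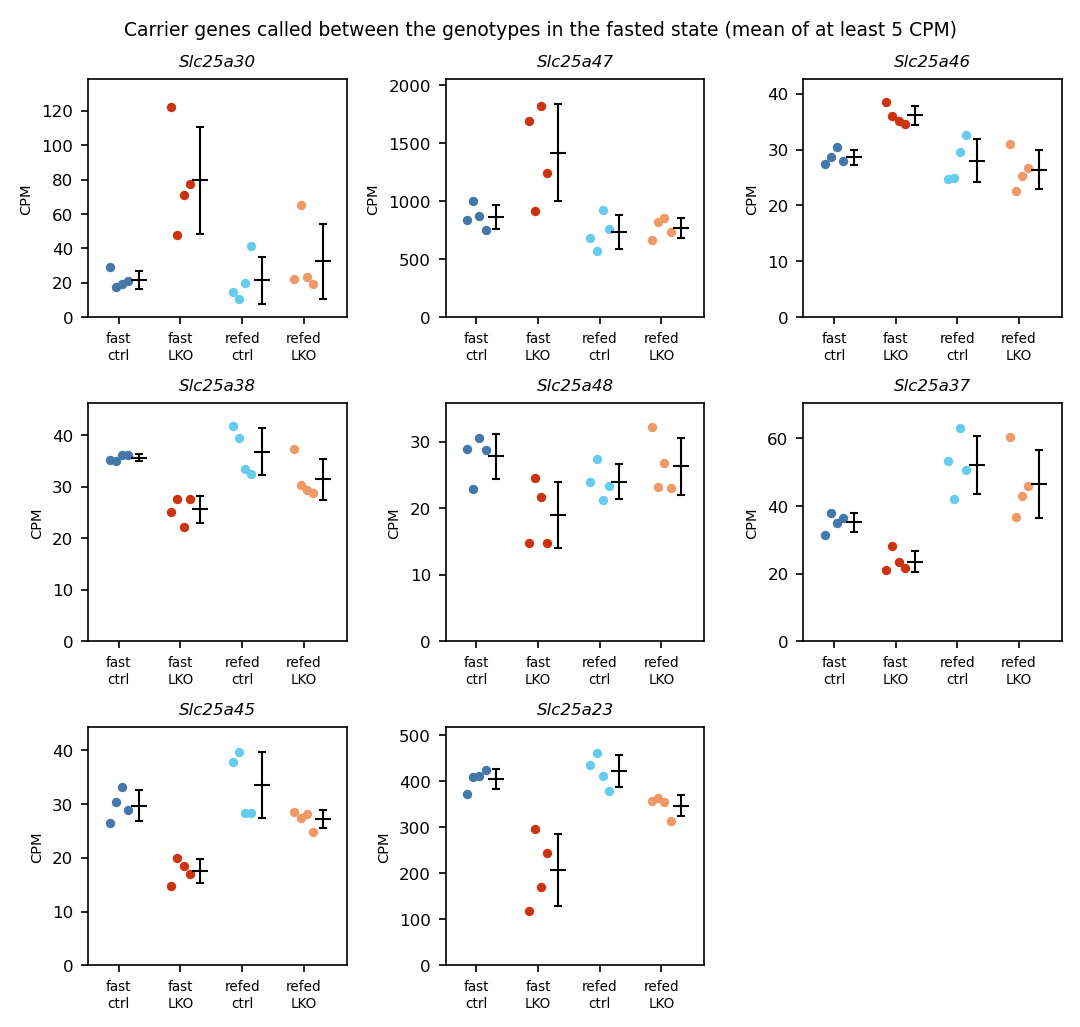
CPM of 8 carriers with a mean of at least 5 CPM that were called between the fasted genotypes. Coloured points are the 4 libraries of each group, and the black mark with bars is the group mean with its SD. Fasted LKO (red) is above fasted control without overlap for Slc25a30 and Slc25a46, and below it without overlap for Slc25a38, Slc25a37, Slc25a45 and Slc25a23.

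The same question was put in the refed state. Here 0 of 39 carriers were called, against 3.63% of all genes (2.28% higher and 1.35% lower). At an unadjusted p under 0.05 there were 9 carriers (18.4% of all genes passed that limit). DESeq2 called 2 of them, Slc25a34 and Slc25a51, both lower in LKO, and limma-voom called 0. The median log2 fold change was −0.06, against −0.01 over all genes, and the carriers ranged from −0.59 to 0.59. Slc25a34, an orphan carrier, had the smallest adjusted p. It held 9.39, 9.29, 7.24 and 6.86 CPM in refed control and 5.88, 6.80, 6.49 and 3.98 CPM in refed LKO, with all LKO libraries below all controls (−0.51, SE 0.16, edgeR adjusted p = 0.0820). Slc25a51, which imports NAD+, ran from 47.8 to 90.3 CPM in refed control and 31.7 to 53.1 CPM in refed LKO, and the groups overlapped (−0.59, SE 0.19, edgeR adjusted p = 0.0930). Groups did not overlap for 6 of the 39 carriers, against 11.7% of all genes. The hepatocyte markers summed to 79943 to 97404 CPM in refed control and 70548 to 82551 CPM in refed LKO, with 0 of 8 called, and Clec4g, an endothelial marker, was called higher (0.44). Of the resident macrophage markers 5 were lower and 0 higher in refed LKO (median log2 fold change −0.92), with 0 called. They summed to 170 to 523 CPM in refed control and 169 to 244 CPM in refed LKO, which overlapped. The part of these cells in the carriers' refed values was not tested.

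The 10 carriers called in the fasted state had refed log2 fold changes from −0.35 to 0.59, smaller in size than the fasted ones for all 10 and of the same sign for 7. Slc25a30 held 14.6, 10.4, 19.7 and 41.4 CPM in refed control and 22.5, 65.1, 23.2 and 19.1 CPM in refed LKO, so that only S53 stood above the refed controls (0.59, SE 0.43, edgeR adjusted p = 0.496). Slc25a23 kept a gap between the groups, at 434, 461, 411 and 379 CPM in refed control and 357, 363, 355 and 313 CPM in refed LKO, without passing (−0.28, SE 0.19, edgeR adjusted p = 0.464). Refed Slc25a45 held 37.8, 39.7, 28.3 and 28.3 CPM in control and 28.4, 27.5, 28.2 and 24.8 CPM in LKO (−0.30, SE 0.12, edgeR adjusted p = 0.188) and the groups overlapped narrowly. For Slc25a47 the refed groups overlapped, with 682, 574, 926 and 765 CPM in control and 664, 824, 859 and 736 CPM in LKO (edgeR adjusted p = 0.897).

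Whether the genotype effect differed between the states was tested as the refed effect minus the fasted effect. Of 39 carriers 0 were called, against 0.538% of all genes (0.311% higher and 0.228% lower), with 12 at an unadjusted p under 0.05 (16.5% of all genes) and 0 called by DESeq2 or limma-voom. A carrier called in the fasted state only is therefore not shown to respond differently in the refed state. The smallest adjusted p belonged to Slc25a34 (difference −0.72, SE 0.22, edgeR adjusted p = 0.119). The differences were −1.28 (SE 0.60) for Slc25a30, 0.69 (SE 0.27) for Slc25a23 and −0.65 (SE 0.26) for Slc25a47, with edgeR adjusted p of 0.295, 0.208 and 0.223.

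**Figure D3:**
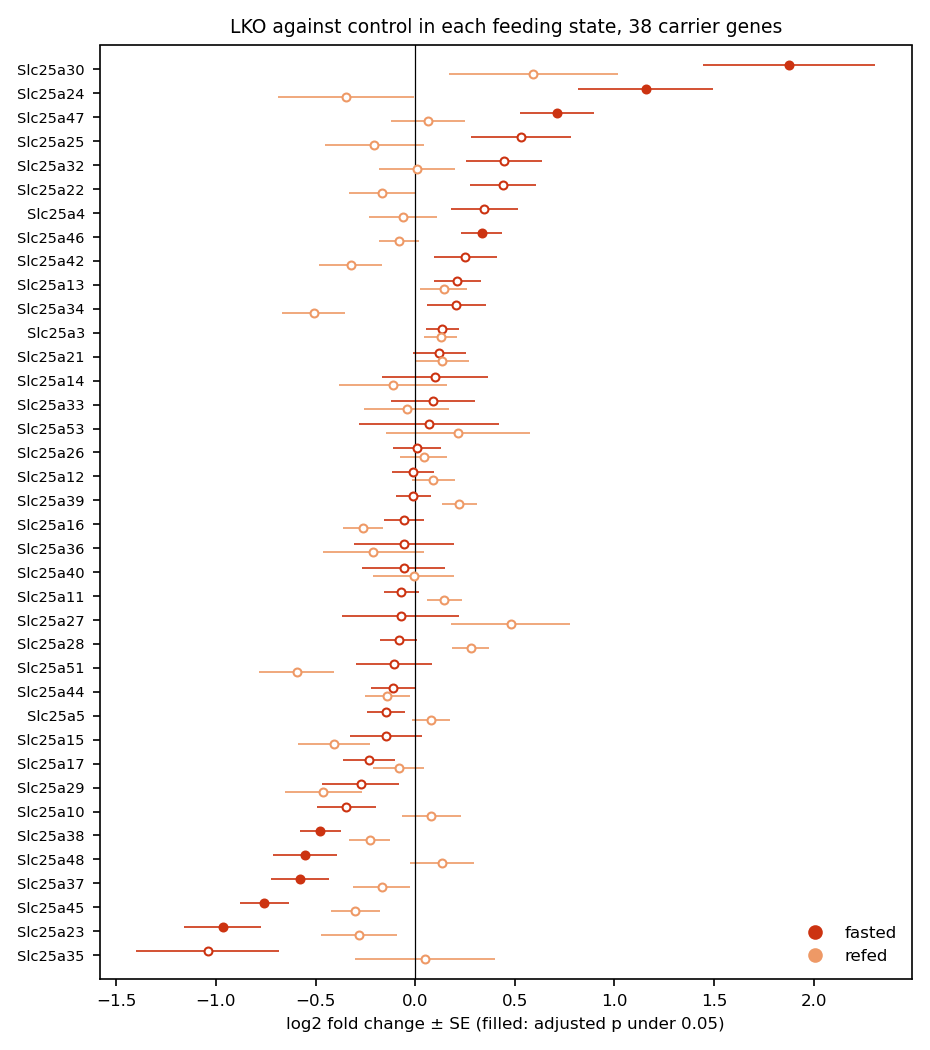
Log2 fold change of LKO over control, with SE bars, for 38 tested carriers in the fasted (red) and refed (orange) state, ordered by the fasted value. Filled points were called: 9 in the fasted state, from Slc25a30 at the top to Slc25a23 near the bottom, and 0 in the refed state.

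The response to feeding was then examined within each genotype. In control liver 6 of 39 carriers were called between refed and fasted, 2 higher and 4 lower after refeeding. This is 15.4% of the carriers and equals the share of all genes called, 15.4% (7.79% higher and 7.65% lower). The median log2 fold change was −0.03, against 0.01 over all genes. Higher were Slc25a37 and Slc25a44, and lower Slc25a28, Slc25a34, Slc25a22 and Slc25a10. The count was lower, at 1 to 5, whichever of the 8 libraries was left out. It was 1, Slc25a28, without S40 or S50, 2 without S42 and 3 without S41, S43 or S48. With no filter on low counts it was 3.

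The mitoferrins moved in opposite directions in control liver. Slc25a28 held 41.6, 36.5, 39.998 and 42.8 CPM in fasted control and 25.5, 24.96, 30.01 and 30.1 CPM in refed control. All refed libraries lay below all fasted ones (−0.54, SE 0.09, edgeR adjusted p = 0.00162), and it was called in all 8 fits that left out 1 library. Slc25a37 went from the fasted values given above to 53.3, 42.1, 63.01 and 50.6 CPM in refed control, without overlap (0.57, SE 0.14, edgeR adjusted p = 0.0150), a call lost without S40 or S50 (adjusted p 0.0543 to 0.0585). Red blood cell markers summed to 264 to 746 CPM in refed control, overlapping the fasted controls, and 0 of 6 tested were called. Among the other markers Fgb (hepatocyte) was lower (−0.51) and Lrat and Reln (stellate cell) higher (0.95 and 0.39) after refeeding in control, and their part in the carriers' values was not tested.

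The other calls in control liver were Slc25a34, Slc25a22, Slc25a10 and Slc25a44. Slc25a34 held 12.1, 11.3, 12.6 and 11.2 CPM in fasted control, above each refed control library (−0.53, SE 0.15, edgeR adjusted p = 0.0277), a call lost without S40, S42, S50 or S51 (adjusted p 0.0640 to 0.0891). The glutamate carrier Slc25a22 held 299.7, 278, 324 and 301 CPM in fasted control and 181, 283, 197 and 184 CPM in refed control, where S49 overlapped the fasted libraries (−0.51, SE 0.17, edgeR adjusted p = 0.0478). It was not called without S40, S41, S42, S43, S48, S50 or S51 (adjusted p 0.0609 to 0.130). The dicarboxylate carrier Slc25a10, which exchanges malate or succinate for phosphate, held 704, 669, 755 and 696 CPM in fasted control and 493, 548, 458 and 547 CPM in refed control. These groups did not overlap (−0.46, SE 0.15, edgeR adjusted p = 0.0426), and the call was lost without S40, S41, S42, S43, S48, S49 or S50 (adjusted p 0.0566 to 0.120). Slc25a44, a carrier of branched-chain amino acids, held 46.1, 52.4, 49.4 and 47.7 CPM in fasted control and 61.8, 74.5, 57.2 and 55.4 CPM in refed control (0.35, SE 0.11, edgeR adjusted p = 0.0488). The groups did not overlap, yet the call was lost without S40, S41, S42, S43, S48, S49 or S50 (adjusted p 0.0575 to 0.153) and under 4 of the 7 other settings. Groups did not overlap for 6 of the 39 carriers, against 20.4% of all genes.

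In LKO liver 11 of 39 carriers were called between refed and fasted, 4 higher and 7 lower after refeeding. This is 28.2% of the carriers, against 18.1% of all genes (9.28% higher and 8.78% lower), and groups did not overlap for 10 of the 39, against 20.6% of all genes. The median log2 fold change was −6.7e-04, against −0.02 over all genes. Without regard to sign, the median size was 0.249 for the carriers and 0.230 for all genes. Higher were Slc25a37, Slc25a23, Slc25a45 and Slc25a17, and lower Slc25a30, Slc25a34, Slc25a22, Slc25a42, Slc25a47, Slc25a4 and Slc25a46. Leaving out 1 library gave 8 to 14 calls, with 8 without S44. The carriers called in both genotypes were Slc25a37, Slc25a22 and Slc25a34. The test of the difference between the states, given above, is also the test of whether refeeding acted differently in the 2 genotypes. It called 0 of 39 carriers, so a carrier called in 1 genotype only is not shown to respond differently in the other. The refeeding comparison in LKO uses the same fasted LKO libraries as the fasted genotype comparison, so a high or low value in them enters both. The bile duct marker Krt19, high in S44, was called lower after refeeding in LKO (−2.53), the only call among the markers in this comparison.

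Slc25a34 had the smallest adjusted p. It held 12.8, 12.6, 13.1 and 16.1 CPM in fasted LKO, and each of the refed LKO libraries given above was lower. Its log2 fold change was −1.24 (SE 0.15, edgeR adjusted p = 8.3e-05). The glutamate carrier Slc25a22 fell from 413, 299.9, 509 and 409.9 CPM in fasted LKO to 216, 143, 191 and 202 CPM in refed LKO. No library overlapped, and the log2 fold change was −1.12 (SE 0.17, edgeR adjusted p = 3.6e-04). Slc25a42, which brings coenzyme A into the matrix, held 221, 212, 238 and 238 CPM in fasted LKO and 93.5, 128, 139 and 105 CPM in refed LKO. Its groups were far apart (−0.96, SE 0.16, edgeR adjusted p = 7.0e-04). In control Slc25a42 also fell, from 192, 199, 175 and 198 CPM to 129.9, 102, 154 and 197 CPM, with overlap at S51, and missed the threshold (−0.39, edgeR adjusted p = 0.109). The difference between these 2 responses was not called. Each of these 3 calls held in all 8 fits that left out 1 library.

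Slc25a47 fell after refeeding in LKO by a log2 fold change of −0.88 (SE 0.19, edgeR adjusted p = 0.00396), with all refed libraries below all fasted ones, and it was called in all 8 fits that left out 1 library, without S44 too (0.0150). Slc25a30 was lower too (−1.30, SE 0.42, edgeR adjusted p = 0.0410), but S53 overlapped the fasted group, and the call was lost without S44, S46, S47, S52, S54 or S55 (adjusted p 0.0571 to 0.134). Slc25a46 held 31.1, 22.6, 25.3 and 26.7 CPM in refed LKO, below each fasted LKO library, and was called in all 8 such fits (−0.45, SE 0.10, edgeR adjusted p = 0.00601). In refed control it was at 24.8, 24.9, 29.7 and 32.7 CPM. Slc25a4 (ANT1) held 9.08, 6.85, 8.52 and 8.95 CPM in fasted LKO and 4.71, 5.76, 7.23 and 4.76 CPM in refed LKO, with overlap between S45 and S54 (−0.58, SE 0.17, edgeR adjusted p = 0.0245). That call was lost without S44, S47, S52 or S55 (adjusted p 0.0559 to 0.0823), and Slc25a4 stood at 5.06 to 8.34 CPM in fasted and 5.02 to 6.39 CPM in refed control.

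The 4 carriers that rose after refeeding in LKO included 3 that were lower in fasted LKO than in fasted control. Slc25a37 rose to 60.4, 36.7, 42.9 and 46.04 CPM (0.98, SE 0.15, edgeR adjusted p = 3.4e-04), Slc25a45 by 0.63 (SE 0.12, adjusted p = 0.00227) and Slc25a23 by 0.75 (SE 0.19, adjusted p = 0.0130). None of these 3 had groups that overlapped, each was called in all 8 fits that left out 1 library, and Slc25a23 missed the threshold with only the 2 groups compared (0.0564). Slc25a17, a peroxisomal carrier of coenzyme A and other nucleotide cofactors, held 33.7, 45.7, 36.5 and 45.995 CPM in fasted LKO and 70.8, 54.1, 49.7 and 52.6 CPM in refed LKO without overlap (0.49, SE 0.13, edgeR adjusted p = 0.0150), a call lost without S44 or S52 (adjusted p 0.0515 to 0.0617). In control Slc25a17 held 42.1, 48.7, 53.6 and 45.7 CPM and 62.6, 50.8, 66.9 and 60.5 CPM (0.34, SE 0.13, edgeR adjusted p = 0.0837). Slc25a38 and Slc25a48, lower in fasted LKO, did not pass here (0.29 and 0.47, edgeR adjusted p = 0.0575 and 0.0520), and refed LKO held 37.3, 30.3, 29.4 and 28.8 CPM of Slc25a38 and 32.2, 23.2, 26.8 and 23.1 CPM of Slc25a48. Their refed control libraries held 41.8, 39.6, 33.5 and 32.4 CPM and 23.96, 27.5, 21.2 and 23.4 CPM.

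**Figure D4:**
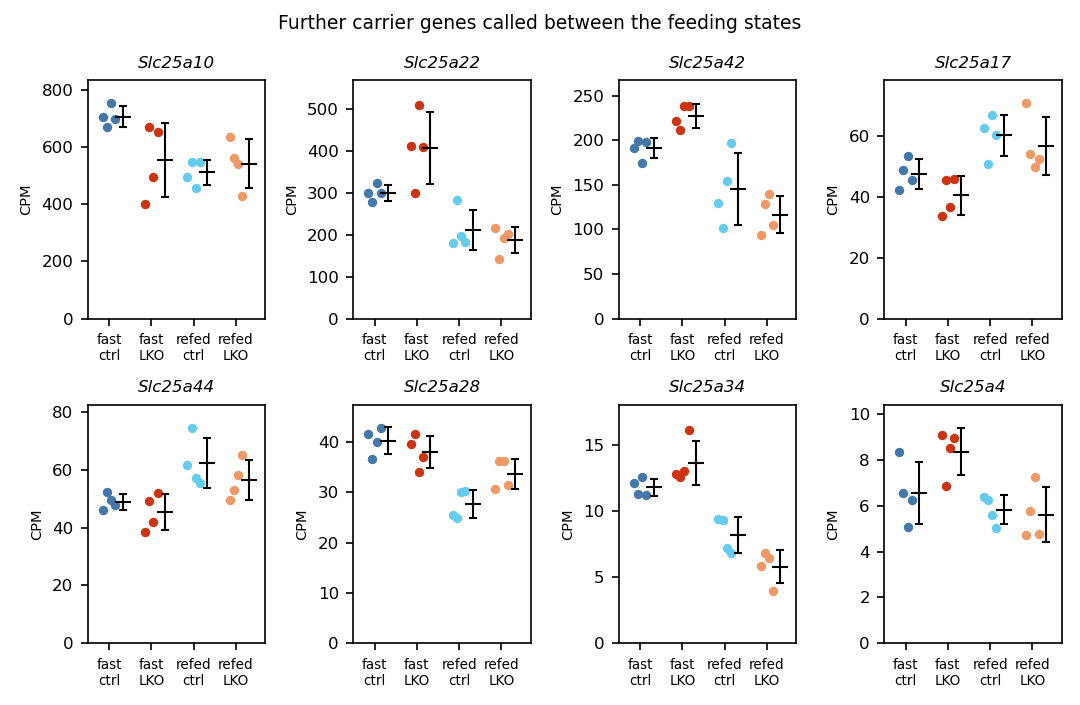
CPM of the 8 further carriers with a mean of at least 5 CPM that were called between feeding states and not between the fasted genotypes. Coloured points are libraries, and the black mark with bars is the group mean with its SD. Slc25a22, Slc25a42 and Slc25a34 are lower in refed LKO than in fasted LKO without overlap, and Slc25a28 is lower in refed control than in fasted control without overlap.

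**Figure D5:**
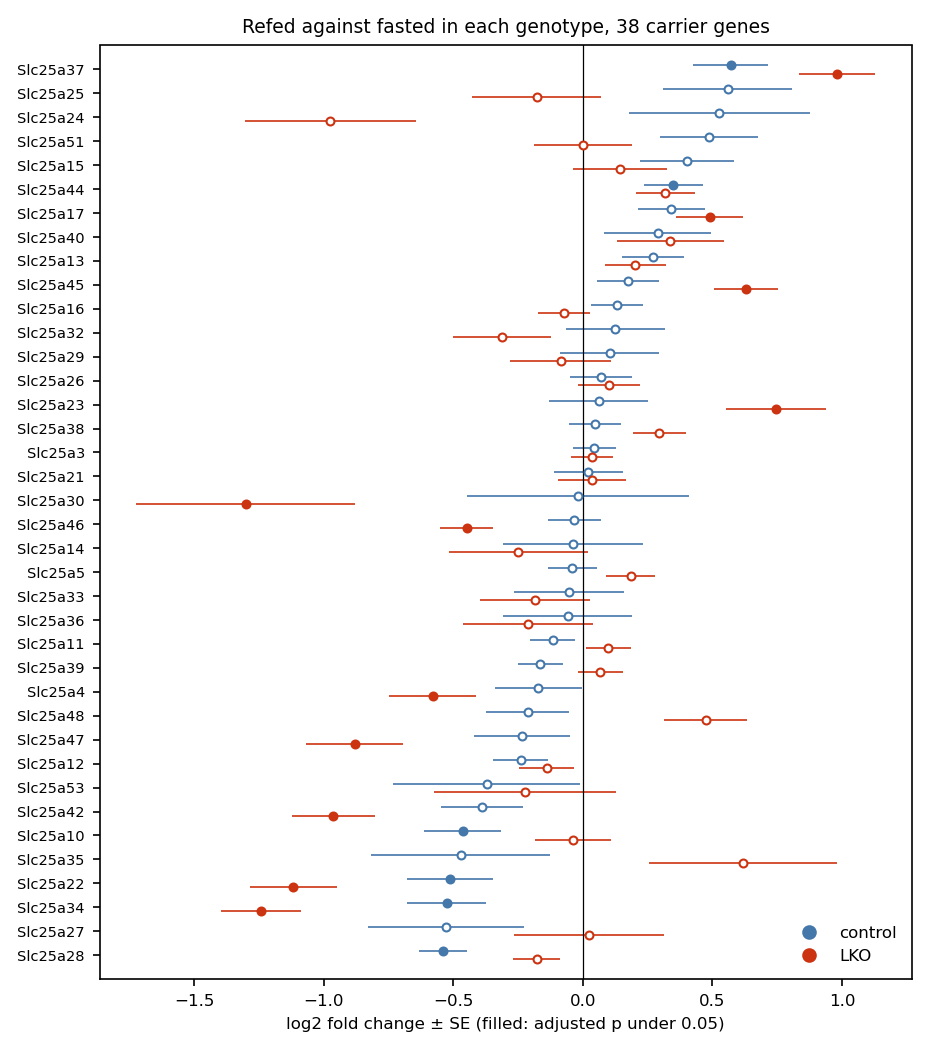
Log2 fold change of refed over fasted, with SE bars, in control (blue) and LKO (red) for 38 tested carriers, ordered by the control value. Filled points were called: 6 in control and 11 in LKO, with Slc25a37 filled in both at the top and Slc25a22 and Slc25a34 filled in both near the bottom.

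Together 18 carriers were called in at least 1 of the 5 contrasts, and 21 of the 39 in none. Those 21 include Slc25a5, Slc25a3, Slc25a39, Slc25a13, Slc25a11 and Slc25a15. Among the 21, log2 fold changes in the 4 group comparisons ran from −1.04 (Slc25a35 in fasted LKO, edgeR adjusted p = 0.0673) to 0.62. Slc25a35 was called there by DESeq2 and limma-voom.

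Genes that work with the carriers were listed as well. Of the SLC25 proteins with other symbols, Mtch1, an insertase of the outer membrane, fell in fasted LKO (−0.38, edgeR adjusted p = 0.00481) and after refeeding in control (−0.31, 0.0148), whereas Mtch2 and Ucp2 were called in 0 of the 5 contrasts. The excluded carnitine/acylcarnitine carrier Slc25a20 held 219 to 265 CPM in fasted control and 317 to 378 CPM in fasted LKO (0.51, edgeR adjusted p = 0.00247), and it was called lower after refeeding in LKO (−0.66, 2.2e-04). Of 10 genes for import of carriers into the membranes, 1 was higher (Tomm70a, a receptor for carrier precursors, 0.32) and 1 lower (Tomm40, −0.34) in fasted LKO, with 0 called in the other 4 contrasts. Among other inner membrane transporters, Sfxn5 and Abcb10 were lower (−0.60 and −0.45) in fasted LKO. Abcb10, which acts in heme synthesis, rose after refeeding in control (0.59) and LKO (1.001).

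Of the 4 enzymes of the malate-aspartate shuttle, 1 was called, Mdh2 in refed LKO (0.33, edgeR adjusted p = 0.0348). Of the 6 urea cycle genes, 6 had negative log2 fold changes of LKO over control in each state (medians −0.45 and −0.29) and 0 were called in any contrast. Of 8 genes that follow mitochondrial mass, such as Cs and the Vdac genes, 0 were called between the genotypes in either state (medians 0.10 and 0.14). In fasted LKO 5 were higher and 3 lower, and in refed LKO 8 were higher and 0 lower. Their summed CPM was 1106 to 1146 in fasted control and 1109 to 1240 in fasted LKO. It was 1009 to 1108 in refed control and 1120 to 1292 in refed LKO, without overlap. After refeeding in control 1, Phb2, was lower (−0.29).

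In the coordinates of the deposited tables, Slc25a47 lies on chromosome 12 from 108801972 to 108822741, Slc25a30 on chromosome 14 from 75997557 to 76024477, Slc25a23 on chromosome 17 from 57350711 to 57366863, Slc25a45 on chromosome 19 from 5927836 to 5935906 and Slc25a34 on chromosome 4 from 141346135 to 141351132. The submitters' processing notes name mm39. Whether counting used strand is not given in the sources used here, so reads in stretches shared with a gene on the other strand may be assigned to either. Slc25a23 shares 759 bases with Crb3 (15.9 CPM on average, against 345 CPM for Slc25a23) and 3433 bases with Gm17168 (0.331 CPM), and Slc25a11 shares 245 bases with Rnf167. Among the other carriers called in any contrast, Slc25a10 and Slc25a46 share stretches with genes under 2 CPM.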

How the data were processed

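Liver poly-A RNA of 16 libraries, 4 in each of 4 groups, was sequenced from dUTP libraries, per the labels' protocols. The authors deposited 4 tables, 1 for each comparison, with raw read counts per gene for 8 libraries each. Counts of a library in 2 tables were identical. Reads were aligned with HISAT2 2.0.5 to mm39, per the submitters' processing notes, and the counting tool, its use of strand and the annotation are not given in the sources used here. Columns are named S40 to S55, and the group headings in the tables gave each its group. Per the file headers, the deposited group means are a normalized signal, and the deposited log2 fold changes, p-values and adjusted p-values are the authors' own. They were used as a check: the deposited tables put 12, 0, 7 and 10 of the carriers under 0.05 (fasted LKO, refed LKO, refeeding in control and in LKO), of which 10, 0, 6 and 10 were called here in the same direction. Those not called here were Slc25a22 and Slc25a42 in fasted LKO and Slc25a17 after refeeding in control. A further 64 per-library columns were not used here.

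The tables were joined on the gene identifier, with 3148 genes set to 0 in libraries whose tables did not list them, none of them a carrier. Counts were fitted in R 4.3.3 with edgeR 4.0.16 (TMM factors, filterByExpr, the 4 groups as 1 factor, glmQLFit and glmQLFTest, Benjamini-Hochberg over 14488 genes), and the fit was tested on simulated data. DESeq2 1.42.0, limma-voom (limma 3.58.1), other size factors, other filters, only the groups compared and leaving out each library were the alternatives. The standard error is the log2 fold change divided by the square root of F. The values in every library are given for carriers called in at least 1 contrast with a mean of at least 5 CPM, and other carriers by range and count. Some genes are counted but not reported here by name. The carriers and all gene and marker lists were chosen with earlier results of these data known.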

Additional observations from a re-analysis of the deposited data

Results flagged for a closer look

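For 16 carriers with a call and a mean of at least 5 CPM, the highest and lowest library of each group of 4 was compared with the other 3 by Dixon's ratio, and in 4 of the 68 groups tested, Cpt1a's included, the library stood apart. Chance alone flags about 1 in 20 groups. S49 of refed control was high for Slc25a22 (283 CPM, the others 181 to 197 CPM). S53 of refed LKO was high for Slc25a30 (65.1 CPM, the others 19.1 to 23.2 CPM). S55 of refed LKO was low for Slc25a23 (313 CPM, the others 355 to 363 CPM). S47 of fasted LKO was high for Slc25a34 (16.1 CPM, the others 12.6 to 13.1 CPM).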

How the results depend on the processing

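The count of carriers called in fasted LKO fell from 10 to 6 with only the groups compared in the fit. In refed LKO it was 2 with DESeq2, against 0, and after refeeding in control it was 3 with no filter on low counts, against 6. The other settings left these counts within 1.5 times. Leaving out 1 library gave 4 to 11 calls in fasted LKO, 0 to 0 in refed LKO, 1 to 5 after refeeding in control, 8 to 14 after refeeding in LKO and 0 to 0 for the difference between the states. These counts are not set against the share of all genes called in the same fits. Of the single carriers' calls, 174 of the recomputed values under other settings stayed past the threshold and 14 did not, and 149 did and 67 did not when a library was left out, with no change of direction. The cause was not tested. No paired analysis was possible because the count columns carry no replicate number. The number of animals behind a library is not given in the sources used here, and 4 carriers had too few counts to test.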
